A study of Drosophila melanogaster with 18 samples.

Results

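The regions described here lie on Uextra, a part of the dm3 build that strings together scaffolds with no known place. They have a modest signal there in a DRIP-seq experiment. They were selected by 3 values in the authors' deposited tables: the name Uextra, a base mean (normalised read count averaged over libraries) below 1000, and a group mean in hrp48 RNH- libraries no more than 1 log2 unit above that in LacZ RNH- libraries. The rule took 1455 of the 6477 regions in the LacZ table, 1740 of 2980 in the hrp36 table and 1638 of 7735 in the hrp48 table, or 4833 of 17192 entries in all. The rule used the base mean and the difference between hrp48 and LacZ RNH- levels. Those measures are therefore given as a description and are not tested by themselves. The LacZ and hrp48 responses to RNH+ share RNH- libraries with the rule, while the hrp36 libraries entered it through the base mean. A test of the difference between the LacZ and hrp48 responses therefore draws on a value that the rule used.

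The study used the S9.6 antibody on genomic DNA from S2 cells, a line of Drosophila melanogaster. The labels also give a cell type of primary culture from a late stage, which goes against the cell line named beside it. There were 3 cell groups, a knockdown of hrp36, a knockdown of hrp48, and cells labelled LacZ, taken as the control, each with 2 libraries labelled RNH- and 2 labelled RNH+, read as without and with RNase H. How the knockdowns were made, how far they went, and whether the 2 libraries of a group came from separate cultures are not given in the labels, so p-values reflect only how far these libraries differ, and that spread may be technical.

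S9.6 binds RNA-DNA hybrids, in which an RNA strand pairs with DNA, as in R-loops. RNase H cuts the RNA of such hybrids, so hybrid signal is removed by the enzyme, whereas DNA that the antibody recovers for other reasons is not. Hrp36 and Hrp48 are abundant hnRNP proteins, which bind newly made transcripts. Unplaced fly scaffolds are rich in repeats and heterochromatin, and reads from repeats can fit several of them, so entries may share reads. The regions carry no gene names and are given by dm3 position.

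The same stretches recurred in the 3 tables. Merged across tables, the entries formed 2276 loci that covered 1208220 bases, with a median of 518 bases per locus, and ran from position 43421 to 28914600. Of these loci, 966 were entered in all 3 tables and 341 in the hrp36 and hrp48 tables. The LacZ and hrp48 tables shared a further 139, and LacZ and hrp36 another 116. Members of a single table made up 316 (hrp36), 224 (LacZ) or 174 (hrp48). Only members were merged, so such a locus may still overlap a region of another table that the rule left out. Each table lists regions named for its own RNH- libraries, which favours regions with a high RNH- level in that cell group.

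The 3 conditions set the regions apart from their neighbours to different degrees. On Uextra, a base mean of 1000 or more kept out 573, 368 and 664 regions of the LacZ, hrp36 and hrp48 tables. Between 900 and 1100 there were 48, 56 and 59 regions, so that border cut a continuous range: the nearest values were 991.236 inside and 1006.81 outside in the LacZ table, 999.549 and 1007.26 in the hrp36 table, and 994.064 and 1001.87 in the hrp48 table. The limit on the hrp48 difference kept out 3405 regions below a base mean of 1000, all in the hrp48 table. That border fell in a sparse range. The highest difference inside it was 0.90, at 9094041 to 9094753 (LacZ RNH- 6.67, hrp48 RNH- 7.57), and the lowest outside it was 1.24, at 5280736 to 5281517 (6.48 and 7.72).

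Members were similar in scale in the 3 tables. Their median base mean was 230.5 in the LacZ table, 197.5 in the hrp36 table and 191.8 in the hrp48 table, and their median length 466, 534 and 441.5 bases. Levels are the authors' means of log2(normalised count + 1) per group, with no SD and no values for single libraries. The base mean averages counts before the log is taken, so it exceeds the average of the group means by an amount that grows with the gap between libraries. If the gap were the same in all 6 groups, the base mean would put the 2 libraries of a group a median of 0.77 log2 units apart in the LacZ table, 1.04 in the hrp36 table and 0.97 in the hrp48 table. This implied gap weighs the groups with the highest level most, and is used below as a rough scale of replicate spread.

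The 3 RNH+ groups had nearly the same median level, and the 3 RNH- groups lay further apart, with hrp36 high and hrp48 low. At the members of the LacZ table, the median RNH- level was 7.79 for LacZ, 8.05 for hrp36 and 7.54 for hrp48 cells, and the median RNH+ level 7.65, 7.63 and 7.68. In the hrp36 table the RNH- medians were 7.33, 7.70 and 7.13, and the RNH+ medians 7.44, 7.42 and 7.38. In the hrp48 table they were 7.49, 7.77 and 7.23, and 7.38, 7.37 and 7.37. The RNH- level of hrp36 cells was thus the highest of the 6 medians in every table, and the RNH- level of hrp48 cells the lowest.

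**Figure D1:**
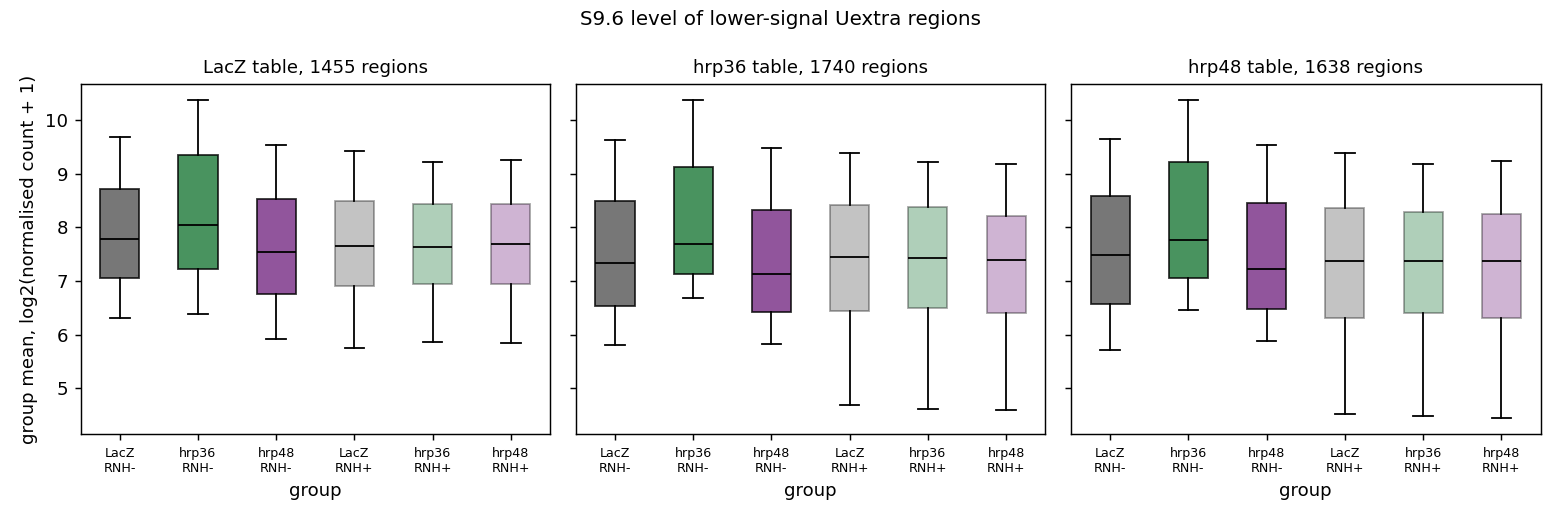
Level of the members in each of the 6 groups (log2 of normalised count + 1, authors' group means), with 1 panel per table. Boxes span the quartiles with the median as a line, whiskers run from the 5th to the 95th percentile over regions and are not replicate error. The hrp36 RNH- box stands highest in each panel, with medians of 8.05, 7.70 and 7.77, while the 3 RNH+ boxes lie side by side.

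Region by region, hrp36 RNH- was the highest of the 3 RNH- levels at 1127 of 1455 members of the LacZ table (77.5%), 1657 of 1740 of the hrp36 table (95.2%) and 1452 of 1638 of the hrp48 table (88.6%). The hrp48 RNH- level was the lowest of the 3 at 1274 (87.6%), 1334 (76.7%) and 1203 (73.4%) members. This is a description only, since the rule capped that level against LacZ, though the cap left out regions in the hrp48 table alone. The low hrp48 level was not particular to members. Its median difference from LacZ was -0.23, -0.16 and -0.15 at members, and -0.48, -0.24 and -0.35 on the chromosome arms. Over all regions listed it was -0.38, -0.15 and 0.45. The median difference between hrp36 and LacZ RNH- levels was 0.32, 0.56 and 0.49 log2 units, and it was positive at 1137, 1663 and 1470 members. With RNH+ the same difference had medians of -0.03, -0.04 and -0.04. In the LacZ table, whose regions were found in LacZ libraries, the members' 0.32 compared with -0.31 on the chromosome arms, 0.07 on U and 0.14 at Uextra regions of high signal. In the hrp36 table those figures were 0.40, 0.52 and 0.56, close to the members' own 0.56. Few single regions cleared the spread between libraries: the hrp36 level was above the LacZ level by more than the implied gap at 53, 218 and 171 members of the LacZ, hrp36 and hrp48 tables, and below it by more than the gap at 43, 0 and 17, so in the LacZ table such differences went nearly as often either way. Group means carry no error of their own, so no test was run on these differences. The counts above were made for members only, so their shares over all regions are not given. Over all regions listed, the median difference between hrp36 and LacZ RNH- levels was -0.14, 0.50 and 0.60 in the LacZ, hrp36 and hrp48 tables.

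A difference above 1 log2 unit between hrp36 and LacZ RNH- levels was found at 132, 308 and 266 members of the LacZ, hrp36 and hrp48 tables. None of them (0 in each table) had a difference above 1 between the RNH+ levels of the same cells, and among all members of these tables only 1, 1 and 2 had one. Their implied gaps were wide, with medians of 1.52, 1.35 and 1.29, and the difference exceeded the gap at 21, 140 and 117. These counts were made for members only. The widest differences in the hrp36 table were at short regions. At 6806485 to 6806689, the RNH- levels were 7.19 for LacZ, 10.25 for hrp36 and 7.89 for hrp48 cells, and the RNH+ levels 8.31, 7.17 and 6.93. The hrp36 RNH- group alone was high there, 8.35-fold above LacZ, with an implied gap of 1.87. Region 2771301 to 2771517 had RNH- levels of 7.91, 10.96 and 8.59 and RNH+ levels of 8.92, 7.91 and 7.82. At 12670442 to 12670687 the RNH- levels were 7.42, 10.24 and 7.38 and the RNH+ levels 7.07, 5.80 and 5.48. With RNH+ the order turned in all 3 regions: the hrp36 level minus that of LacZ was -1.14, -1.01 and -1.27. The implied gaps of 1.87, 1.92 and 1.89 weigh the hrp36 RNH- group most, so they do not give the spread of the RNH+ groups.

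At the other end, few members of the hrp36 table had less RNH- signal in hrp36 than in LacZ cells, and the lowest differences were small. Region 1566786 to 1567252 had RNH- levels of 7.97, 7.59 and 7.05 and RNH+ levels of 7.49, 7.35 and 7.91, a difference of -0.38 against an implied gap of 0.52. The difference was -0.32 at 9625183 to 9625691 (implied gap 0.46). At 7353029 to 7353569 the RNH- levels were 8.90, 8.53 and 8.37 and the RNH+ levels 6.85, 8.02 and 8.01. There LacZ had the lowest RNH+ level of the 3 cell groups, 1.17 below hrp36. That was the widest such difference among members of the hrp36 table. The implied gap of 1.64 weighs the higher RNH- groups most.

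A single member, named after its values were seen, had signal in LacZ cells and hardly any in the knockdown cells. Region 11425868 to 11426255 of the LacZ table had levels of 9.14 with RNH- and 8.57 with RNH+ in LacZ cells, 2.44 and 4.59 in hrp36 cells, and 2.11 and 4.94 in hrp48 cells. Both LacZ groups were high and all 4 knockdown groups low, and the RNH- level of hrp36 minus that of LacZ was -6.69, beyond the implied gap of 2.91. The log2 fold change of RNH+ over RNH- in LacZ cells was -0.41 by the authors' deposited table (adjusted p 0.691, SE 0.58). The next lowest difference of hrp48 from LacZ in that table, at 4080052 to 4080283, was -1.03.

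The next comparison was that of RNH+ with RNH- libraries within each cell group, which asks how far signal is sensitive to RNase H. Levels are normalised counts, so falls and rises are relative to the reference used, as described below. Rose and fell are used below of regions that the authors' deposited table gives an adjusted p under 0.05. In LacZ cells 234 of 1455 members fell (16.1%, against 9.79% of all regions in the table) and 99 rose (6.80% against 4.88%) in the authors' deposited table. In hrp36 cells 862 of 1740 fell (49.5% against 44.9%) and 130 rose (7.47% against 5.34%). In hrp48 cells 391 of 1638 fell (23.9% against 44.6%) and 147 rose (8.97% against 5.71%). The hrp48 table holds regions with hrp48 excess in RNH-, which the rule leaves out. Among its 3973 regions without that excess, on any chromosome, 13.8% fell and 11.1% rose.

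Changes were moderate in size. The median log2 fold change over all members was -0.20 (LacZ cells), -0.84 (hrp36 cells) and -0.28 (hrp48 cells) in the authors' deposited tables, where the median SE was 0.34, 0.37 and 0.37. Members that fell had a median of -1.14, -1.57 and -1.27, and those that rose 0.997, 1.52 and 1.12 in the authors' deposited tables. For scale, the median over the chromosome arms was -0.09, -0.61 and 0.23 in the same tables, and relative to the arms the members' median was -0.22 in hrp36 and -0.51 in hrp48 cells. The balance of falls and rises depended on that reference. Tested by a Wald statistic with Benjamini-Hochberg adjustment over the table, LacZ had 161 lower and 57 higher members (73.9% lower), and 140 and 80 after centring on the arm median (63.6%). The counts in hrp36 cells went from 938 and 148 (86.4%) to 462 and 327 (58.6%). In hrp48 cells they went the other way, from 415 and 164 (71.7%) to 565 and 90 (86.3%).

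**Figure D2:**
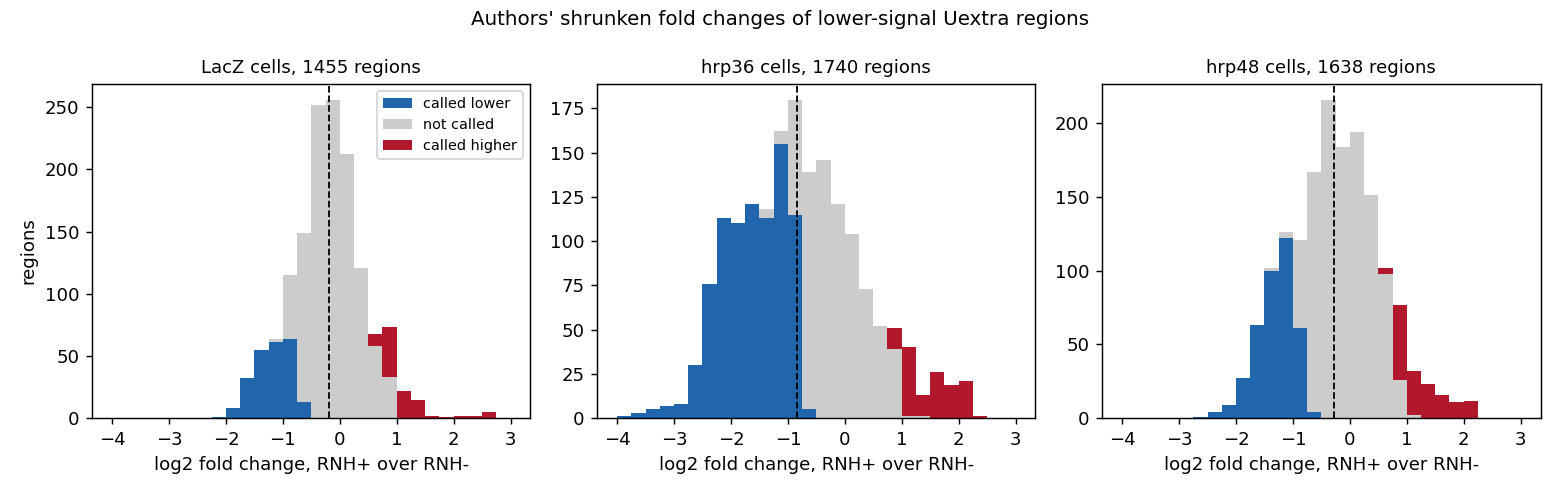
Number of members by the authors' shrunken log2 fold change of RNH+ over RNH- in LacZ, hrp36 and hrp48 cells, in bins of 0.25. Colours mark members called lower (234, 862 and 391), called higher (99, 130 and 147) and not called, and the dashed line is the median (-0.20, -0.84 and -0.28).

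Compared with other unplaced regions, members fell more often than Uextra regions of high signal, of which 4.54%, 38.3% and 10.2% fell in the LacZ, hrp36 and hrp48 tables by the authors' calls. Those high-signal regions were split off by the rule's own base mean. Their median SE was wider (0.47, 0.45 and 0.47), so their share of calls is not directly comparable. On U the shares were 12.6%, 51.9% and 14.1%. Of the 3748 U and Uextra regions with hrp48 excess, all in the hrp48 table and left out by the rule, 77.2% fell. No test was made of these shares, since regions on unplaced scaffolds are not independent.

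Direction followed the signal level within the members. The counts by base mean were made for members only, so whether other regions had the same pattern is not given. With a base mean under 50, all 32 hrp36 members fell, as did 64 of 72 hrp48 members and 4 of 5 LacZ members, and 0 rose. From 50 to 100, 268 of 334 fell in hrp36 cells, 183 of 302 in hrp48 cells and 48 of 163 in LacZ cells, and rises were 0, 3 and 0. Falls were least frequent from 100 to 200, at 26.5%, 6.12% and 11.7% in this order. Rises were concentrated between 200 and 500, with 107 of the 130 in hrp36 cells, 83 of the 147 in hrp48 cells and 53 of the 99 in LacZ cells. Between 500 and 1000, falls took 215 of 322 members in hrp36 cells (66.8%), 58 of 319 in hrp48 cells and 59 of 307 in LacZ cells. A region of low base mean is listed only where its RNH- signal was high enough to be found, so the falls at low base mean carry that choice as well as the response.

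**Figure D3:**
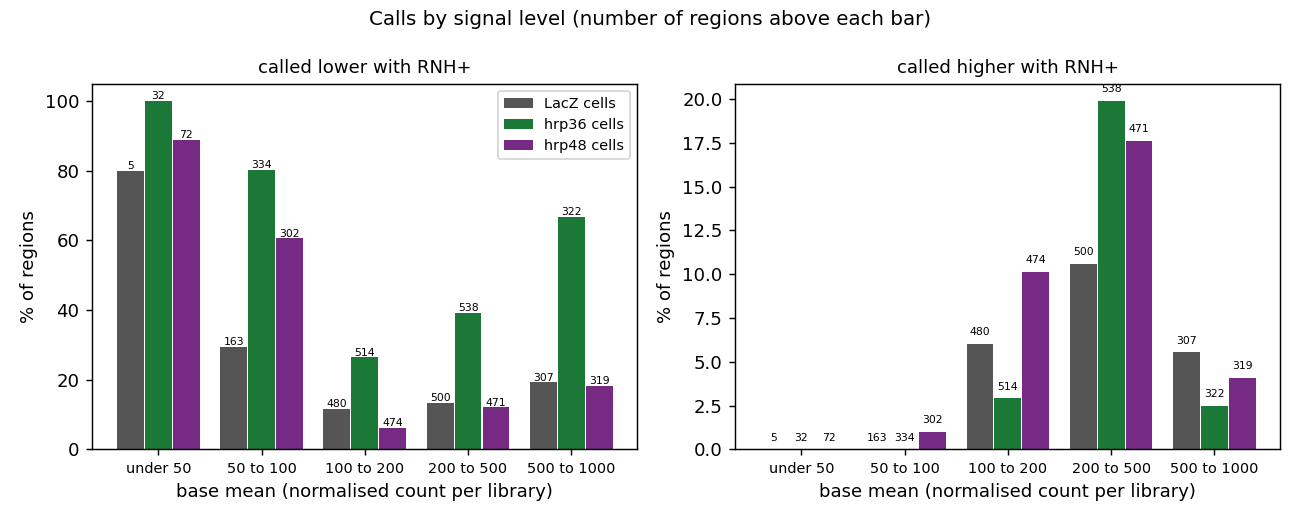
Share of members called lower (left) and higher (right) with RNH+, by base mean, for LacZ, hrp36 and hrp48 cells. The number above each bar is the number of members in the bin. Falls take all 32 hrp36 members under 50 and rises peak between 200 and 500, where 107 of 538 hrp36 members, 83 of 471 hrp48 members and 53 of 500 LacZ members rose.

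The largest falls, taken among called members whose base mean reached the members' median, are described first, and that condition sets their level high. Without it, the members with falls of at least 1.5 log2 units in the authors' deposited tables had a median base mean of 252.1 for LacZ, 111.5 for hrp36 and 61.9 for hrp48 cells. In hrp36 cells the leading region was 16063795 to 16064245. Its RNH- levels were 9.52 for LacZ, 11.27 for hrp36 and 9.96 for hrp48 cells, and its RNH+ levels 7.12, 6.98 and 7.03. All 3 RNH+ groups were low, and hrp36 RNH- stood highest, with an implied gap of 1.54. The log2 fold change in hrp36 cells was -3.76 by the authors' deposited table (adjusted p 4.36e-13, SE 0.46), or 13.5-fold. In hrp48 cells its counterpart, 16063820 to 16064202, was the leading fall too, at -2.53 by the authors' deposited table (adjusted p 1.26e-05, SE 0.46).

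Region 28696208 to 28696434 was second in hrp36 cells. Its RNH- levels were 8.13, 9.20 and 8.01 in LacZ, hrp36 and hrp48 cells, and its RNH+ levels 5.53, 5.12 and 5.21. The group means separated by RNH label, with an implied gap of 1.24. The log2 fold change was -3.68 in hrp36 cells and -2.48 in hrp48 cells in the authors' deposited tables (SE 0.41 and 0.42). The next falls of hrp36 cells were at 11404791 (-3.62), 17749107 (-3.40) and 28270195 (-3.33) by the authors' deposited table. Those of hrp48 cells were at 16844768 (-2.18), 11404864 (-2.06) and 13274904 (-2.05) by the authors' deposited table.

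In LacZ cells the largest fall was at 16844755 to 16845236, the counterpart of 16844768. Its RNH- levels were 10.17, 11.31 and 10.22, and its RNH+ levels 7.72, 7.63 and 7.73, with a log2 fold change of -2.04 by the authors' deposited table (adjusted p 4.94e-05, SE 0.41). Region 27470765 to 27471243 went from 8.60 to 6.31 in LacZ cells, 9.14 to 5.78 in hrp36 cells and 8.24 to 6.15 in hrp48 cells, and had -1.98 by the authors' deposited table (adjusted p 5.57e-06, SE 0.36). The remaining leading falls of LacZ cells began at 22548183 (-1.86), 9916413 (-1.84) and 6573534 (-1.82) in the authors' deposited table. At the 5 leading falls of LacZ cells the hrp36 RNH- level was the highest of the 6, above LacZ by 0.33 to 1.14 log2 units, and the implied gap was 0.64 to 1.13.

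The largest rises had a pattern that recurred from region to region. Entries may share reads, so these regions need not be separate observations. At 27151909 to 27152205, the leading rise of LacZ cells, the RNH- levels were 6.21 for LacZ, 6.63 for hrp36 and 5.78 for hrp48 cells, and the RNH+ levels 9.12, 9.02 and 8.13. All 3 RNH+ groups were high and all 3 RNH- groups low. The hrp48 cells were the lowest cell group on both sides, in RNH- as at most members. The log2 fold change was 2.64 in LacZ cells by the authors' deposited table (adjusted p 5.74e-09, SE 0.37). The overlapping region 27151776 to 27152229 led the rises of hrp36 cells, at 2.28 by the authors' deposited table (adjusted p 5.85e-08, SE 0.37). In hrp48 cells the leading rise was 14223288 to 14223545, with RNH- levels of 6.37, 6.97 and 6.01, RNH+ levels of 9.17, 8.99 and 8.53, and a log2 fold change of 2.21 by the authors' deposited table (adjusted p 7.46e-06, SE 0.39).

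Rises of 1.5 log2 units or more numbered 12 for LacZ, 67 for hrp36 and 39 for hrp48 cells in the authors' deposited tables. At every one of these members the RNH+ group mean was above the RNH- group mean in all 3 cell groups, though members that share reads are not independent. In the hrp36 table their median RNH- levels were 6.15 for LacZ, 6.86 for hrp36 and 5.91 for hrp48 cells, and their median RNH+ levels 8.82, 8.87 and 8.23. The hrp48 RNH+ level was below that of LacZ at 11 of the 12, 66 of the 67 and 28 of the 39, with median differences of -0.74, -0.46 and -0.47. Among all members the median of that difference was 0.01, -0.07 and -0.03. Falls of the same size numbered 41, 474 and 104. Of the 474 in hrp36 cells, the LacZ group means went down at all but 14 and the hrp48 means at all but 1.

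**Figure D4:**
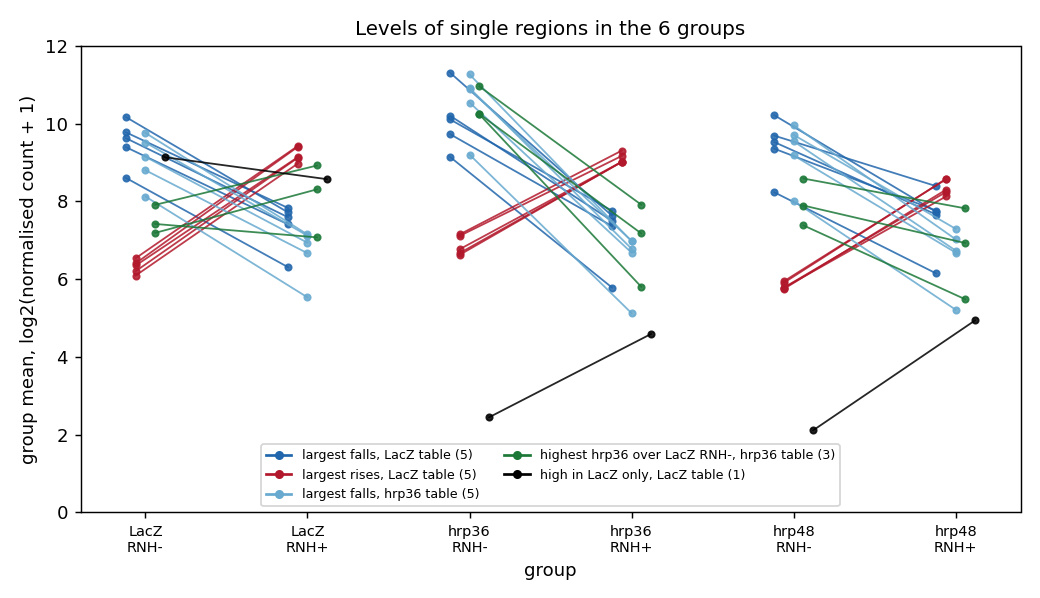
Group means (log2 of normalised count + 1) of single members in the 6 groups, with a line from RNH- to RNH+ within each cell group. Blue lines are the 5 largest falls of the LacZ and of the hrp36 table, red lines the 5 largest rises of the LacZ table, green lines the 3 members with the highest hrp36 RNH- level relative to LacZ, and the black line the member high in LacZ alone. The red lines climb from between 5.75 and 7.15 to between 8.13 and 9.43 in every cell group.

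In hrp36 cells, rises were more frequent where the base mean implied a wide gap between the libraries of a group, a gap inferred by assuming it equal in all 6 groups. In hrp36 cells the median implied gap was 1.96 log2 units at members that rose, 0.99 at those that fell and 1.04 at those not called. The SE in the authors' deposited tables was larger where the gap was wide, with medians of 0.32 below a gap of 1 and 0.40 at or above it in hrp36 cells, 0.31 and 0.39 in LacZ cells, and 0.33 and 0.40 in hrp48 cells. Between rises and falls of hrp36 cells it was close, 0.39 and 0.38. Whether the authors' model had a term for replicate, which would take a shared gap out of the SE, is not stated in the sources used. With the limit of an implied gap under 1, set once the data had been seen, 811 hrp36 members remained, of which 438 fell and 11 rose. Among the other 929 members 424 fell and 119 rose. In LacZ cells 49 of 958 members under that limit rose (5.11%) and 50 of the other 497 (10.1%). In hrp48 cells the shares were close, with 70 of 863 (8.11%) and 77 of 775 (9.94%). The median gap was 1.17 at rises and 0.99 at falls of hrp48 cells, and 1.02 and 0.81 in LacZ cells. The part of the gap between libraries in these rises was not tested.

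**Figure D5:**
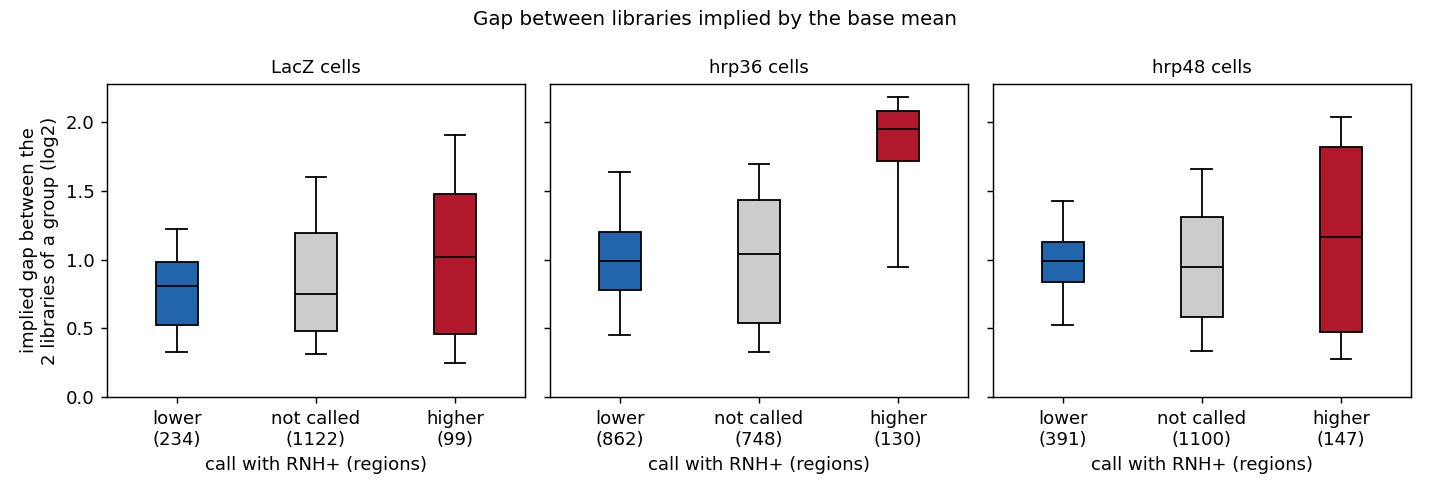
Gap between the 2 libraries of a group that the base mean implies (log2 units), for members called lower, not called and called higher in LacZ, hrp36 and hrp48 cells. Boxes span the quartiles with the median as a line, and whiskers run from the 5th to the 95th percentile. The median is 1.96 at the 130 rises of hrp36 cells against 0.99 at its 862 falls.

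The number of tables with a member at a locus went with the calls. Regions that the rule left out were not counted there. Of the hrp36 members at loci without a member of another table, 81 of 316 rose (25.6%) and 115 fell (36.4%). At loci with members of all 3 tables there were 967 hrp36 members, of which 16 rose (1.65%) and 521 fell (53.9%). Of 224 members entered in the LacZ table alone 6 fell and 26 rose, against 205 and 47 of 976 at loci in all 3. In the hrp48 table rises followed the same order, with 28 of 174 single-table members (16.1%) and 50 of 984 at shared loci (5.08%), while falls had the opposite order, with 66 (37.9%) and 155 (15.8%). Members in a single table were of lower base mean, with medians of 130.6, 120.5 and 78.8 in the LacZ, hrp36 and hrp48 tables against 308.0, 318.7 and 299.6 at shared loci.

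To compare the cell groups at the same place, members were paired where regions of 2 tables overlapped by at least 1 base and each was the best match of the other. LacZ and hrp36 shared 1082 such pairs: 213 fell in LacZ and 544 in hrp36 cells, with 196 in both, which is 92.0% of the LacZ falls and 36.03% of the hrp36 falls. LacZ and hrp48 shared 1112, where 213 fell in LacZ, 157 in hrp48 and 135 in both (63.4% and 86.0%). Of 1307 pairs of hrp48 and hrp36, 316 fell in hrp48, 724 in hrp36 and 305 in both (96.5% and 42.1%). Rises in both LacZ and hrp36 cells numbered 20, of 52 in LacZ (38.5%) and 22 in hrp36 cells (90.9%). LacZ and hrp48 cells shared 51, of 68 (75%) and 93 (54.8%), and hrp48 and hrp36 cells 34, of 73 (46.6%) and 43 (79.1%). All these overlaps were counted for member pairs only. They were not counted for the 2165 (hrp36 and LacZ), 3187 (hrp48 and LacZ) and 2363 (hrp48 and hrp36) matched regions in all. In 1 pair the calls were opposite: 24946139 to 24946520 fell in hrp48 cells, and 24946223 to 24947329, a region of 1107 bases against 382, rose in hrp36 cells. Over the shorter region the hrp36 means were 6.52 with RNH- and 4.64 with RNH+, so they too were lower with RNH+. The opposite calls thus belong to regions of unlike extent.

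At 965 places the members of all 3 tables matched. There 125 fell in all 3 cell groups, 14 rose in all 3, 317 fell in hrp36 cells alone by the authors' calls and 362 were called in none. No such count was made over all matched regions. At the 125 shared falls the median log2 fold change was -1.33 for LacZ, -2.05 for hrp36 and -1.13 for hrp48 cells in the authors' deposited tables. The shared falls with the smallest of their largest adjusted p began at 27470765, 16844755, 22548183, 4113050, 11494491 and 9916413 in the LacZ table. Among them 11494491 to 11495120 had nearly the same values in each cell group, with RNH- levels of 8.59 for LacZ, 8.69 for hrp36 and 8.65 for hrp48 cells and RNH+ levels of 7.44, 7.53 and 7.43. Its log2 fold changes were -1.09, -1.12 and -1.16 in the authors' deposited tables (SE 0.27 in each), and its implied gap was 0.31.

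The 14 shared rises were milder than the leading ones. Their median log2 fold change was 1.22 for LacZ, 1.12 for hrp36 and 1.34 for hrp48 cells in the authors' deposited tables, and their median RNH- levels were 7.48, 7.65 and 7.43 against RNH+ levels of 8.95, 9.13 and 9.25. Region 23274750 to 23275148 had RNH- levels of 6.77, 6.97 and 6.59 and RNH+ levels of 7.80, 8.02 and 8.12. Its log2 fold changes were 0.997, 1.01 and 1.46 in the authors' deposited tables (SE 0.27 in each, largest adjusted p 0.00171), with an implied gap of 0.70. Region 24193781 to 24194290 had RNH- levels of 7.36, 7.17 and 6.87 and RNH+ levels of 8.23, 8.19 and 8.22, with an implied gap of 0.40. At both regions each of the 3 RNH+ means was above each of the 3 RNH- means. The other named shared rises began at 3331573, 5148497, 10076709 and 7299085.

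Whether the response itself differed between cell groups was tested with a Wald statistic from both SEs, adjusted by Benjamini-Hochberg over all matched regions. Between hrp36 and LacZ the response differed at 1 of 1082 member pairs (0.0924% of all 2165 matched regions were called), and 188 pairs had an unadjusted p under 0.05, 184 of them lower in hrp36 cells. The median difference was -0.46, with a median SE of 0.49, the same as the -0.46 over all matched regions. Between hrp48 and LacZ 0 of 1112 pairs differed (0% of 3187 matched regions), with 21 at an unadjusted p under 0.05 and a median difference of 0.13. Those 21 are fewer than a threshold of 0.05 would give if no response differed, so the test appears conservative there. The rule also capped the hrp48 RNH- level against LacZ, a value that enters this difference. The absence of calls therefore cannot show equal responses. Between hrp48 and hrp36 0 of 1307 differed (0% of 2363), with 189 at an unadjusted p under 0.05 and a median difference of 0.62. The 2 comparisons with LacZ share its libraries.

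The pair that differed was 24808150 to 24808472 in the hrp36 table and 24808199 to 24808430 in the LacZ table. Its RNH- levels were 8.43 for LacZ, 9.87 for hrp36 and 8.13 for hrp48 cells, and its RNH+ levels 9.01, 7.45 and 7.81. The LacZ mean was higher with RNH+ than without, the hrp36 mean was lower, and the hrp48 means differed by -0.32. The log2 fold change was -2.15 in hrp36 cells (SE 0.43) and 0.60 in LacZ cells (SE 0.43) in the authors' deposited tables, a difference of -2.75 (SE 0.61, adjusted p 0.0143, Wald test). The adjusted p over the alternatives ran from 0.0131 to 0.194, the last with fold changes centred on the arms. The region also had the widest shortfall of hrp36 against LacZ in RNH+ among members of the hrp36 table, -1.56, followed by 28006887 to 28007126 and 27756959 to 27757308, both at -1.33, where the implied gaps were 1.98 and 1.14.

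Length and position, also counted for members only, gave weaker patterns. In LacZ cells 19.2% of members longer than 582.5 bases fell, against 12.5% of those up to 341 bases. In hrp36 cells 59.9% of members longer than 622 bases fell, against 45.9% of those up to 442. In hrp48 cells the longest members, over 564 bases, fell no more often (18.4%) than those up to 328.25 bases (18.8%). The median distance between successive members was 12518.5 bases in the LacZ table, 10047 in the hrp36 table and 11092 in the hrp48 table. Neighbours under 2000 bases apart differed in log2 fold change by a median of 0.60, 0.95 and 0.70, and those 20000 bases or more apart by 0.60, 1.11 and 0.80, so closeness on Uextra went with little more likeness. Uextra joins scaffolds end to end, so distance there need not be distance in the genome. Along it, in steps of 3 Mb, falls in hrp36 cells ranged from 38.5% to 71.8% of members, with the highest share from 3000000 to 6000000 (84 of 117). In the LacZ table the difference of hrp36 from LacZ in RNH- had a median of -0.01 in the first step, where 150 members lay, and 0.26 to 0.57 in the others.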

How the data were processed

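Each cell group has 1 table of regions, so 3 in all, which the authors made on dm3 with Bowtie2 2.2.2, MACS 1.4.2 and DESeq2, per the submitters' processing notes; the order of these steps and the handling of reads with several places are not stated in the sources used here. Per the file headers, the authors gave log2 group means for 6 groups (Un read as RNH-, Tr as RNH+), a base mean (the authors' normalised signal per region), a shrunken log2 fold change between Tr and Un for the cell group the table is named after, its SE, a deposited Wald score, and a deposited p-value and adjusted p-value. Positions and other values are as the authors deposited them. There were 12 S9.6 libraries in 6 groups of 2. The 6 input libraries were not used. No counts per library were used, so depth is unknown and no counting interval is given. Every member had an adjusted p.

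The members and lists were chosen with earlier results of these data known. Calls are adjusted p under 0.05 by the authors. Tables were matched with bedtools 2.31.1, and responses compared by a Wald test adjusted over all matched regions. The test was tried on simulated data whose noise followed the same SEs, so SEs that are too wide would not show there. Named regions are the 5 largest falls and rises per table among called members of base mean at or above the members' median, 6 shared calls each way by the smallest of the largest adjusted p, the 3 highest and lowest differences of hrp36 from LacZ, border regions, and differing responses. Alternatives were other thresholds, limits, adjustments, overlaps, unshrunken differences and centring on the arms. No dm3 sequence or annotation was used, so sequences are not shown. Tools were SciPy 1.17.1, pandas 2.3.3 and NumPy 2.4.6 under Python 3.11.15, with figures by Matplotlib 3.10.9.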

Additional observations from a re-analysis of the deposited data

Results flagged for a closer look

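The response to RNH+ differed between hrp36 and LacZ cells at 24808150 to 24808472, by -2.75 log2 units (Wald test, SE 0.61, adjusted p 0.0143), and its cause was not tested. It was the single such pair among 1082. It was not past the threshold when fold changes were centred on the chromosome arms (difference -2.22, adjusted p 0.194).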

How the results depend on the processing

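No paired analysis was possible because the deposited columns are group means and carry no replicate numbers, and for the same reason leaving out single libraries could not be run. Recomputed counts were taken as kept within 1.5 times, and medians within the median SE of a single region. By this, 78 were kept and 24 moved further. The recomputed medians all stayed below 0, and counts have no direction. The limit for medians is wide: the hrp48 median went from -0.28 to -0.51 with centring and was taken as kept. At an adjusted p under 0.01, falls went to 146 in LacZ and 224 in hrp48 cells, and rises to 43, 74 and 72 in LacZ, hrp36 and hrp48 cells. Requiring a change of at least 1 left 49 rises in LacZ and 92 in hrp48 cells. Adjusting over the listed p-values left 57 LacZ rises. Centring on the arms gave 140 LacZ falls, 462 hrp36 falls, 327 hrp36 rises, 90 hrp48 rises and a median of -0.22 in hrp36 cells. With an implied gap under 1, chosen after the data were seen and with fewer regions tested, rises were 49, 11 and 70, and falls 438 in hrp36 and 199 in hrp48 cells. Responses that differed between hrp36 and LacZ went to 0 with centring and 0 with an implied gap under 1. Between hrp48 and hrp36 they went to 4 with centring, 1 at an adjusted p under 0.1 and 1 with an implied gap under 1. The cause of these changes was not tested apart from the smaller sets. Of the named regions' values with a test, 83 kept their direction and side of the threshold. With centring, 3 lost it, 1 (9625183) passed it, and 2 uncalled values changed sign, to 0.39 at 1566786 and 0.45 at 7353029 (adjusted p 0.282 and 0.570). The 43 unshrunken differences have no test and kept their sign. With 2 libraries per group and no single values, replicate spread is known only through the SE and the implied gap.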
